A study of Mus musculus with 6 samples.

Results

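Transglutaminases were examined in the RNA-Seq data of BK5.ATF3 mammary tumors. The members are the 4 genes *Tgm1*, *Tgm2*, *Tgm3* and *Tgm5*, taken by gene symbol from a deposited table of 15280 genes. RNA-Seq libraries were available from 3 BK5.ATF3 transgenic female mice, and each animal gave 1 mammary tumor (T) and 1 adjacent normal gland (M), which makes 3 libraries per tissue. In this model the bovine keratin 5 promoter drives ATF3 in basal epithelial cells. All 3 females carried the transgene and had raised 1 litter, and tumors were taken at a length of 1.5 cm, having arisen at 6 to 12 months of age. The glands thus carry the transgene as well, and the comparison is of tumor with gland in the same animals and not of transgenic with wild-type mice. Libraries are named by tissue and mouse number, as in M11035 and T11035.

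Transglutaminases are calcium-dependent enzymes that join a glutamine of one protein to a lysine of another, a bond that most proteases do not cut. A cysteine in the active site attacks the glutamine and forms the intermediate. TGase 1, TGase 3 and TGase 5, the products of *Tgm1*, *Tgm3* and *Tgm5*, build the cornified envelope of squamous epithelium: TGase 1 is anchored to the membrane of keratinocytes, TGase 3 is a cytosolic proenzyme of the upper epidermis and the hair follicle, and TGase 5 contributes to cohesion between the outer layers. Tissue transglutaminase (TG2), the product of *Tgm2*, is made by endothelium, smooth muscle, macrophages and fibroblasts, cross-links the extracellular matrix and also binds GTP. In the mammary gland cornification is a feature of squamous metaplasia and not of the secretory epithelium.

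The 45 bases of coding sequence around the active-site cysteine are shown because they are the stretch all 4 enzymes depend on. They were read from the mm9 genome in the direction of transcription, each from within 1 coding exon, and the cysteine codon is in capitals.
Tgm1: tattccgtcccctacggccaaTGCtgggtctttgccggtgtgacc
Tgm2: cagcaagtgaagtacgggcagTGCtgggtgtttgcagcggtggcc
Tgm3: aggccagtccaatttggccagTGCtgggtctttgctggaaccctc
Tgm5: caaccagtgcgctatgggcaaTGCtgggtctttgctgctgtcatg

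The *Tgm1* window lies at chr14:56328238-56328282 on the minus strand, in exon 7 of 15. The windows of *Tgm2* (chr2:157957074-157957118, minus strand), *Tgm3* (chr2:129855487-129855531, plus strand) and *Tgm5* (chr2:120896475-120896519, minus strand) each lie in exon 6 of 13. Between pairs of members, 27 to 32 of the 45 bases were identical. Over the aligned coding sequences, identity between members ran from 59.2% (*Tgm2* with *Tgm3*) to 61.9% (*Tgm1* with *Tgm5*), so these genes are not near-identical copies. On mm9, *Tgm1* spans bases 56318846 to 56332329 of chromosome 14, and the other 3 members lie on chromosome 2: *Tgm5* at 120871847 to 120911577, *Tgm3* at 129838085 to 129876135 and *Tgm2* at 157942138 to 157972172. Exons of *Tgm2* overlap those of *Rprd1b* on the opposite strand over 370 bp, of which 178 bp belong to its coding transcript, so fragments there could come from either gene. *Rprd1b* was at a mean of 28.8 CPM in the glands and 31.8 CPM in the tumors and was not a differentially expressed gene (DEG), with a log2 fold change (log2 FC) of 0.15 (adjusted p = 0.512, limma).

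Values are CPM, the fragments on a gene scaled by the effective library size. The depth was 4750989 to 7806908 fragments on genes per library, and 3 fragments, taken as the floor, equal 0.393 to 0.610 CPM. The labels of the tissues were set against marker lists. Summed over 13 adipocyte markers, the glands had 4530 to 9070 CPM and the tumors 171 to 235 CPM, and all 13 markers were downregulated. Of 15 squamous markers, 14 were upregulated, with sums of 30.6 to 69.7 CPM in the glands and 4270 to 7100 CPM in the tumors, and *Lor* was at 0 in all 3 glands. The squamous list shares *Krt1*, *Krt10*, *Ivl*, *Lor*, *Sprr1a* and *Sprr1b* with the list of cornified envelope genes below, so the counts of these lists are not independent. Of 11 basal epithelial markers, 10 were upregulated. Of 13 luminal epithelial markers, 5 were upregulated and 6 downregulated. Over all genes, 14.5% were upregulated and 13.7% downregulated. Over 12 skeletal muscle markers, glands M11035, M11640 and M9232 had 17100, 5966 and 380 CPM, and the tumors had 50.7 to 110 CPM. In bulk tissue, fewer cells of a type and less RNA per cell cannot be told apart.

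The cornifying enzymes *Tgm1*, *Tgm3* and *Tgm5* were upregulated in the tumors, and *Tgm2* was lower. DEGs are genes with an FDR-adjusted p of at most 0.05 and an FC of at least 2 in limma's moderated test on log2(CPM + 0.5). Of the 4 members, 3 were upregulated DEGs, beside 14.5% of all genes tested, and 0 were downregulated DEGs, beside 13.7%. At the adjusted p alone, *Tgm2* was among the genes lower in the tumors, which made up 19.6% of all genes. The 3 tumors lay all above the 3 glands for *Tgm1*, *Tgm3* and *Tgm5*, as they did for 27.6% of all genes, and all below them for *Tgm2*, as for 26.3%.

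*Tgm1* encodes the membrane-bound enzyme that starts the cornified envelope. It was at 5.90, 4.13 and 6.02 CPM in glands M11035, M11640 and M9232, and at 36.7, 50.5 and 58.7 CPM in tumors T11035, T11640 and T9232. Every tumor was far above every gland, and T9232 was the highest. *Tgm1* thus rose from 5.35 ± 1.06 CPM (SD, n = 3) to 48.6 ± 11.2 CPM, a log2 FC of 3.06 (SE 0.24, adjusted p = 3.09e-05, limma). The log2 difference between the tissues was 2.54 in the mouse of T11035, 3.46 in that of T11640 and 3.18 in that of T9232.

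*Tgm3*, the proenzyme of the upper epidermis and hair follicle, had the largest rise of the 4. The glands had 0.203, 0.165 and 0.410 CPM, at or under the floor in each library and made up of only 5 fragments in all. Tumors T11035, T11640 and T9232 had 108, 161 and 92.8 CPM, from 2423 fragments. The groups did not overlap, and T11640 was the highest tumor. The log2 FC was 7.29 (SE 0.27, adjusted p = 1.04e-06, limma). The ratio of pooled fragments, scaled by library size, was 450, with an exact 95% interval of 193 to 1390 that covers counting error only.

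*Tgm5* was the least abundant member in the tumors. Its gland values were 0.203, 0.165 and 0 CPM, from 2 fragments, so its gland level was not distinguishable from none at this depth. The tumors had 10.1, 13.8 and 8.09 CPM, again with T11640 highest. Tumors T11035 and T9232 each held 54 fragments, so which of them was lowest lies within counting error. The log2 FC was 4.14 (SE 0.32, adjusted p = 2.88e-05, limma), and the ratio of pooled fragments was 99 (exact 95% interval 27.1 to 822, counting error only). For *Tgm3* and *Tgm5* the fitted FC depends on the pseudocount, because the glands are at the floor.

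*Tgm2*, the tissue transglutaminase, had 77.3, 60.3 and 58.8 CPM in glands M11035, M11640 and M9232. In tumors T11035, T11640 and T9232 it had 37.6, 30.0 and 44.4 CPM. Each tumor was below each gland, and the log2 difference was -1.03 in the mouse of T11035, -0.99 in that of T11640 and -0.40, the smallest, in that of T9232. The means were 65.5 ± 10.2 CPM in the glands and 37.3 ± 7.18 CPM in the tumors (SD, n = 3). The log2 FC of -0.81 (SE 0.19, adjusted p = 0.0105, limma) passed the FDR threshold but not the FC threshold, so *Tgm2* was not a DEG. The half-width of its 95% confidence interval was 0.44, which reaches past an FC of 2. It remained below the FDR threshold with each library left out, without gland M11035 (log2 FC -0.68) as well.

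**Figure D1:**
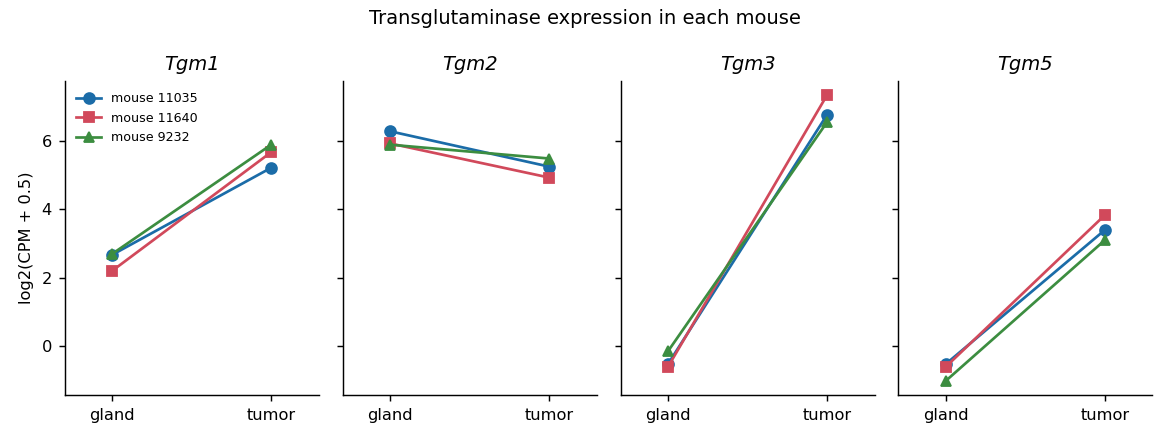
Expression of the 4 transglutaminases as log2(CPM + 0.5) in gland and tumor, with each line joining the 2 tissues of 1 mouse. *Tgm1*, *Tgm3* and *Tgm5* climb in all 3 mice, *Tgm3* most steeply (log2 FC 7.29), while *Tgm2* slopes down in all 3 (log2 FC -0.81).

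Levels of different genes were compared as CPM per kb of exon. In the glands *Tgm2* was by far the most abundant of the 4, at 14.2 ± 2.22 CPM per kb (SD, n = 3), followed by *Tgm1* at 1.78 ± 0.352. *Tgm3* (0.0628 ± 0.0319) and *Tgm5* (0.0389 ± 0.0343) overlapped in their values. In the tumors the order of level was *Tgm3* (29.1 ± 8.64 CPM per kb), *Tgm1* (16.2 ± 3.71), *Tgm2* (8.10 ± 1.56) and *Tgm5* (3.37 ± 0.913). The values of neighbours in that order did not overlap across the 3 tumors.

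As a share of the CPM per kb summed over the 4 genes, *Tgm2* had 88.3% ± 2.13 in the glands and 14.7% ± 4.28 in the tumors (SD, n = 3). *Tgm3* went the other way, from 0.401% ± 0.231 to 50.8% ± 8.63. The share of *Tgm1* was 11.1% ± 2.10 and 28.6% ± 6.45, and that of *Tgm5* 0.234% ± 0.203 and 5.91% ± 1.02. In each gene the 3 tumors and the 3 glands did not overlap. The two-sided exact permutation test gave p = 0.1 for each (0.1 after adjustment over the 4 genes), the smallest that 3 against 3 allows. Per kb, *Tgm3* was 2.13, 2.31 and 1.15 times *Tgm1* in T11035, T11640 and T9232, whereas *Tgm5* was 0.122, 0.112 and 0.114 times *Tgm3*. The ratio of *Tgm5* to *Tgm3* thus varied little among the tumors, while tumor T9232 had relatively more *Tgm1*.

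**Figure D2:**
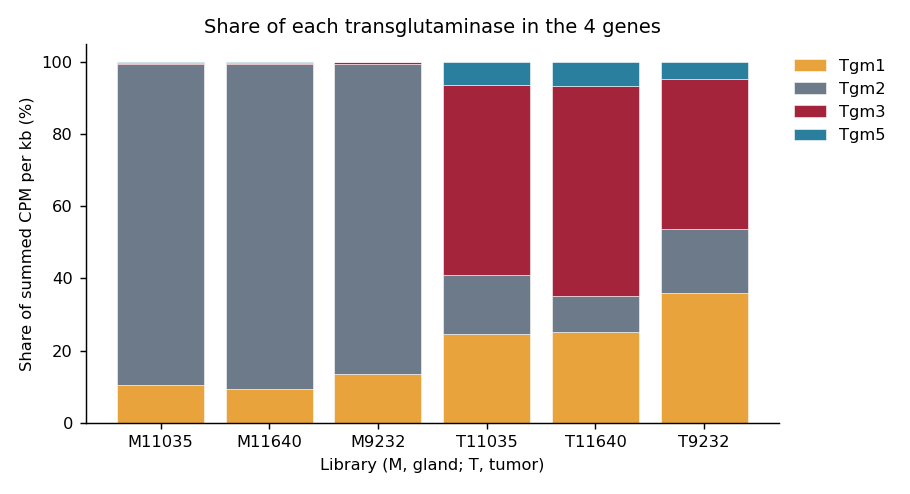
Stacked bars give the share of each gene, in percent, in the CPM per kb of exon summed over the 4 transglutaminases, for each gland (M) and tumor (T). *Tgm2* fills most of each gland bar (mean 88.3%), and *Tgm3* is the largest segment of each tumor bar (mean 50.8%).

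Of the 6 other family genes looked for, 3 were in the table under these symbols. *Tgm6*, which neighbours *Tgm3* on chromosome 2 with a gap of 62016 bp and whose product is best known from the nervous system, was at 0 in all 3 glands. It had 6.89, 5.64 and 1.80 CPM in T11035, T11640 and T9232, and was upregulated (log2 FC 3.23, SE 0.47, adjusted p = 8.55e-04, limma). Against a floor of 3 fragments per library it was at least 9.45-fold higher. Its level per kb was 0.0746, 0.0409 and 0.0226 times that of *Tgm3* in the same tumors, so it remained a minor transcript. *Tgm4*, the prostate transglutaminase, had 2.64 to 4.92 CPM in the glands and 5.25 to 7.44 CPM in the tumors and did not pass the test (log2 FC 0.72, adjusted p = 0.0773, limma), and its exons overlap *Zdhhc3*.

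*F13a1* encodes the A subunit of coagulation factor XIII, a transglutaminase carried by macrophages and platelets. It spread widely in the glands, with 34.4 CPM in M11035, 196 in M11640 and 126 in M9232, and had 21.2, 37.7 and 68.0 CPM in T11035, T11640 and T9232. The groups overlapped, and it was not a DEG (log2 FC -1.31, SE 0.62, adjusted p = 0.125, limma). With the mouse as a block the same value passed (adjusted p = 0.0172, limma), and without gland M11035 the log2 FC was -2.04 (adjusted p = 0.00843, limma). Without gland M11640 it was -0.79 and without tumor T11035 -0.90 (adjusted p = 0.349 and 0.342, limma). The 12 macrophage markers summed to 1200 to 4170 CPM in the glands and 1400 to 2680 CPM in the tumors. Of these, 1 (8.33%) was upregulated, *Itgam* (log2 FC 1.52), beside 14.5% of all genes. Another 2 (16.7%) were downregulated, *Cd163* (-2.28) and *Marco* (-6.61), beside 13.7%. The 5 platelet and megakaryocyte markers summed to 26.8 to 34 and 15.4 to 39.1 CPM, with 0 called. The part of these cells in the *F13a1* values was not tested. Per kb, *F13a1* (18.4 ± 12.6 CPM per kb) overlapped *Tgm2* in the glands and, at 6.57 ± 3.69, in the tumors.

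**Figure D3:**
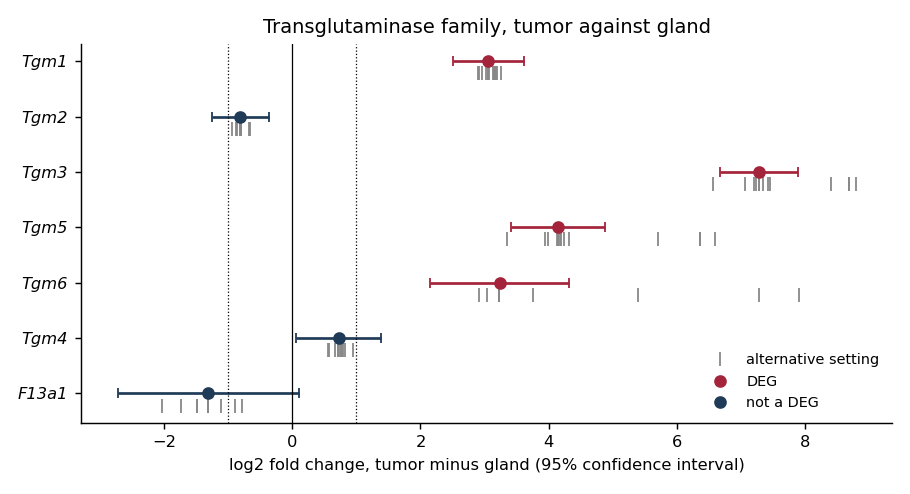
Log2 FC of tumor over gland for the 7 transglutaminase family genes in the table, with 95% confidence intervals from limma. Grey ticks under each point are the values under alternative settings, and dotted lines mark an FC of 2. The ticks spread widest for *Tgm3*, *Tgm5* and *Tgm6*, which were at or under the floor in the glands, and stay on 1 side of 0 for every gene.

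The members were also set beside the genes next to them on their chromosomes. Besides *Tgm6*, the nearest tested neighbours on either side were *Tinf2* and *Rabggta* for *Tgm1*, *Stk35* for *Tgm3*, *Ccndbp1* and *Lcmt2* for *Tgm5*, and *Rprd1b* and *Lbp* for *Tgm2*. None was a DEG in the limma test. Their log2 FCs ran from -0.93 for *Lbp* (adjusted p = 0.151, limma) to 0.33 for *Stk35* (adjusted p = 0.173, limma). *Lbp* was a downregulated DEG without gland M11035 (-1.45, adjusted p = 0.0154, limma) and with DESeq2 (-1.17, adjusted p = 0.0333), and was at -0.37 without gland M9232.

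Promoter sequences for members that rose together are shown for comparison of their letters. The RefSeq entries (GRCm38.p6, a different build from mm9) were used for *Tgm1*, *Tgm3* and *Tgm5*, and the 250 bases before the start site are given on the strand of the gene. Capitals mark a TATA box (TATAAA) or a GC box (GGGCGG, here on its other strand as CCGCCC). The intervals are chr2:130012090-130012339 (plus strand) for Tgm3, chr14:55713493-55713742 (minus strand) for the more upstream of the *Tgm1* starts, and chr2:121085842-121086091 (minus strand) for Tgm5.
Tgm3: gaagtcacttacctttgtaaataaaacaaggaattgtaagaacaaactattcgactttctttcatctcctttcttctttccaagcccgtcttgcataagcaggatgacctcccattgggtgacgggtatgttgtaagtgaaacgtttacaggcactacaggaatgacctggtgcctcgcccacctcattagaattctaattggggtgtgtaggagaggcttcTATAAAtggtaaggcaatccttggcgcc
Tgm1: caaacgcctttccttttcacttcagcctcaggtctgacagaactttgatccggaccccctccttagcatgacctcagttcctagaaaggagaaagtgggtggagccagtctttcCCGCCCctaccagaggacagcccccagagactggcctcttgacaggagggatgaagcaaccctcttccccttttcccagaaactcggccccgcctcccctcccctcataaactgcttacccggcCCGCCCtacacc
Tgm5: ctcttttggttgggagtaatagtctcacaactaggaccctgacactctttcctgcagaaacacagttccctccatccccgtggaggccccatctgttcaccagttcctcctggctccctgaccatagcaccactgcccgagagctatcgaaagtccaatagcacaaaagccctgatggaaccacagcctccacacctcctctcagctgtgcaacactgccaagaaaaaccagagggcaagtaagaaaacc

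The TATA box of *Tgm3* begins 28 bases before the start site, and 12.4% of all 32851 promoter windows held TATAAA on either strand. The GC boxes of *Tgm1* begin 136 and 12 bases before the start, and 32.7% of all windows held 1. The letters of the AP-1 site (TGANTCA, in 6.75% of windows), the cyclic AMP response element (TGACGTCA, in 1.55%) and the grainyhead site (AACNGGTT, in 1.79%) were not found in these windows on either strand. These matches describe the letters and not sites of binding.

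Transcripts for the proteins that the cornifying transglutaminases join were counted next. Of 59 cornified envelope genes listed, 53 were in the table, and 52 of these were upregulated and 0 downregulated. Their median log2 FC was 4.61, while over all genes 14.5% were upregulated and the median was -0.00276. *Ivl*, which encodes involucrin, the early scaffold used by TGase 1, had 0, 0.330 and 0.274 CPM in the glands and 24.8, 58.1 and 91.4 CPM in T11035, T11640 and T9232 (log2 FC 6.23, SE 0.46, adjusted p = 2.16e-05, limma). All glands were under the floor, and the tumors differed among themselves in the same order as for *Tgm1*. *Sprr1a* and *Sprr1b*, small proline-rich cross-bridging proteins, rose by log2 FCs of 7.36 and 7.25 (adjusted p = 6.94e-05 and 7.05e-06, limma).

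*Lor*, encoding loricrin, the main protein of the mature epidermal envelope, was at 0 in the glands and at only 1.12, 10.5 and 20.1 CPM in T11035, T11640 and T9232 (log2 FC 3.84, SE 0.81, adjusted p = 0.00560, limma). *Evpl* and *Ppl*, whose plakin products envoplakin and periplakin are laid down first, had log2 FCs of 3.63 and 3.95 (adjusted p = 6.96e-05 and 1.05e-05, limma). At the pseudocount of 0.5, the largest log2 FCs of the list were those of *Rptn* (repetin) and *Hrnr* (hornerin), with 9.19 and 9.10 (adjusted p = 1.91e-07 and 4.62e-07, limma). *Tchh*, which encodes trichohyalin, the substrate of TGase 3 in the inner root sheath, rose from 2.82 ± 1.99 CPM to 1027 ± 391 CPM (SD, n = 3), a log2 FC of 8.37 (adjusted p = 3.31e-06, limma). *S100a10* was the gene not called, with a log2 FC of 0.96 under the FC threshold, and it was called without gland M11640 (1.17) or tumor T11035 (1.12). The *Sprr* and late cornified envelope genes on this list are closely related copies, so their fragments may have been shared or lost in counting.

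Among 14 genes for making and attaching the lipid layer of the envelope, a step in which TGase 1 takes part, 11 (78.6%) were upregulated. Of the rest, 0 were downregulated and 3 were not called (median log2 FC 4.22 over the list). The shares of all genes were 14.5% upregulated and 13.7% downregulated. *Abca12*, the lipid transporter of lamellar granules, had the largest log2 FC at this pseudocount (8.27, adjusted p = 5.71e-07, limma), followed by *Elovl4*, an elongase of very long chain fatty acids (7.74, adjusted p = 3.41e-06, limma). *Alox12b*, a lipoxygenase needed to bind ceramides to the envelope, rose by 5.39 (adjusted p = 1.36e-05, limma).

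The 14 genes listed for protease and cystatin control were less uniform, with 5 (35.7%) upregulated and 0 downregulated (median log2 FC 0.84). The shares of all genes were 14.5% and 13.7%. This list is wider than the proteases that activate TGase 3 and their cystatin inhibitors. It includes *Casp14* and *Anxa2*, both upregulated. *Casp14*, the caspase of cornifying cells, rose by a log2 FC of 6.86 (adjusted p = 1.04e-06, limma). *Cst6*, encoding cystatin M/E, an inhibitor of cathepsin L and legumain, rose by 4.43 (adjusted p = 4.11e-04, limma), and *Lgmn*, encoding legumain, by 1.24 (adjusted p = 0.00514, limma). *Ctsl*, encoding cathepsin L, which processes TGase 3, did not pass, with 381 to 962 CPM in the glands and 537 to 1461 CPM in the tumors (log2 FC 0.74, adjusted p = 0.204, limma), nor did *Ctsd* (-0.49, adjusted p = 0.380, limma). Both cathepsin genes overlapped between the tissues. Within mice, *Ctsl* was higher and *Ctsd* lower in the tumor of all 3, and with the mouse as a block both passed the FDR but not the FC threshold (adjusted p = 0.00842 and 0.0473, limma). Without tumor T11035, *Ctsl* was a DEG (1.21, adjusted p = 0.035, limma).

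Of 27 genes of the inner root sheath and hair shaft, where TGase 3 hardens the hair, 26 (96.3%) were upregulated. None was downregulated, and the median log2 FC was 2.99. The shares of all genes were 14.5% and 13.7%. *Krt73* and *Krt25*, keratins of the inner root sheath, had the largest log2 FCs at this pseudocount (7.99 and 7.34, adjusted p = 3.42e-06 and 6.49e-07, limma). *Krt25* had 0, 0.165 and 0 CPM in the glands and 89.7, 104 and 74.9 CPM in T11035, T11640 and T9232, the order of the tumors seen for *Tgm3*. *Gata3*, which also marks luminal cells, was the gene not called (0.66, adjusted p = 0.131, limma), although it was called without tumor T9232 (1.02, adjusted p = 0.0134, limma). Several hair keratins on this list are close copies of each other, with the same limit on counting. In both lists the glands of many genes were at the floor, so the order of the largest changes depends on the pseudocount: *Krt27* ranged from 6.13 to 9.15 over the alternatives and *Krt73* from 7.64 to 8.98.

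Of 22 genes for matrix proteins that TG2 cross-links, 11 were upregulated and 2 (9.09%) downregulated (median log2 FC 1.10), beside 14.5% and 13.7% of all genes. *Col1a1* and *Tnc*, encoding collagen I and tenascin C, had the largest rises (4.63 and 4.47, adjusted p = 2.00e-05 and 1.87e-06, limma), and *Fn1*, encoding fibronectin, rose by 2.60 (adjusted p = 7.24e-04, limma). *Vtn*, encoding vitronectin, and *Igfbp5*, an insulin-like growth factor binding protein, were the downregulated genes (-3.06 and -1.25, adjusted p = 2.92e-04 and 0.0415, limma). Tumors and glands overlapped for *Igfbp5*, which lost its call in 5 of the fits that left out 1 library, with log2 FCs of -0.94 to -1.50. *Spp1*, encoding osteopontin, was not called (-0.33, adjusted p = 0.720, limma) and was at 0.34 without gland M9232.

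Of 21 genes for TG2's surface partners and redox control, 8 (38.1%) were upregulated and 3 (14.3%) downregulated (median log2 FC 0.72), the latter near the 13.7% of all genes. *Itga5* and *Itgb1*, which encode the fibronectin receptor that TG2 binds, rose by 2.17 and 1.19 (adjusted p = 1.24e-04 and 9.27e-04, limma), and *Pdgfrb*, another partner at the surface, by 1.56 (adjusted p = 2.73e-04, limma). *Lrp1*, the receptor that clears TG2, and *Pdia3*, the oxidoreductase that inactivates it, rose by 1.15 and 1.08 (adjusted p = 0.00539 and 0.00255, limma). Without gland M11035 the values were 0.94 and 0.90, under the FC threshold, as they were without tumor T9232 for *Lrp1* (0.99) and without tumor T11640 for *Pdia3* (0.96). *Txn1*, the thioredoxin that activates TG2 (0.80, adjusted p = 0.0167), and *Sdc4*, a heparan sulfate partner (0.72, adjusted p = 0.0585, limma), were not DEGs. *Itga4* and *Mfge8* were downregulated (-1.85 and -1.83, adjusted p = 1.15e-04 and 0.00522, limma).

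Markers of cells that make TG2, and of lymphocytes for comparison, are given beside *Tgm2*. The macrophage markers are given with *F13a1* above. The 12 endothelial markers summed to 409 to 553 CPM in the glands and 249 to 335 CPM in the tumors. Of these, 3 (25%) were downregulated and 0 upregulated (median log2 FC -0.45), beside 13.7% and 14.5% of all genes. The 10 smooth muscle and pericyte markers summed to 485 to 793 and 349 to 458 CPM, with 2 (20%) upregulated and 3 (30%) downregulated. The 11 fibroblast markers summed to 1240 to 4320 and 12400 to 14300 CPM, with 6 (54.5%) upregulated, led by the collagen gene *Col1a1*, and 5 not called. Lymphocytes were not named as a source of TG2, and all 11 of their markers were downregulated. The sums were 307 to 779 CPM in the glands and 29.4 to 44.2 CPM in the tumors. Adipocytes and basal epithelium were not named either. All 13 adipocyte markers were downregulated and 10 of 11 basal epithelial markers were upregulated, as given above. The part of any of these cell types in the *Tgm2* difference was not tested.

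**Figure D4:**
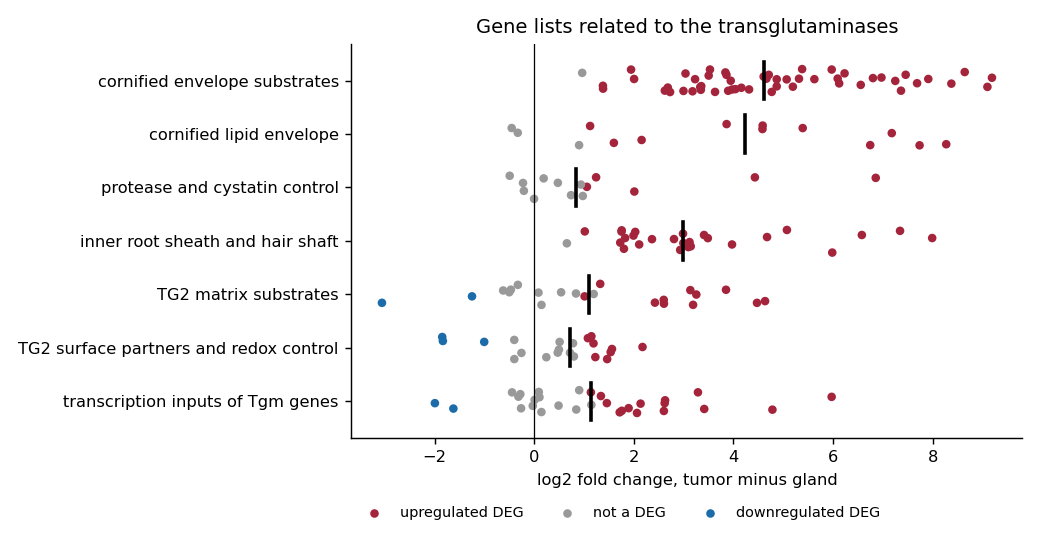
Each point is a gene of 1 of 7 lists, placed by its log2 FC of tumor over gland and colored by its call, and vertical bars are list medians. Cornified envelope genes (52 of 53 upregulated) and hair genes (26 of 27) lie almost entirely to the right, while the TG2 lists and the protease list straddle 0.

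Among 30 regulators listed for transglutaminase genes, 15 (50%) were upregulated and 2 (6.67%) downregulated (median log2 FC 1.14). The shares of all genes were 14.5% and 13.7%. *Grhl3*, a grainyhead factor that acts on *Tgm1* in epidermis, rose from 0.885 ± 0.244 to 87.4 ± 21.2 CPM (SD, n = 3), a log2 FC of 5.97 (adjusted p = 1.76e-06, limma). *Ovol1*, a zinc finger factor of differentiating keratinocytes, rose by 4.78 (adjusted p = 1.65e-05, limma). *Cebpa* and *Ets1* were the downregulated genes (-1.99 and -1.62, adjusted p = 7.25e-04 and 0.00121, limma). *Cebpa* is also expressed in adipocytes and *Ets1* and *Itga4* in lymphocytes, whose markers were all downregulated, and the part of those cells was not tested. The retinoic acid receptor genes *Rarg* (0.90, adjusted p = 0.0210, limma) and *Rarb* (-0.28, adjusted p = 0.414, limma) were not DEGs, and *Rarg* passed the FC threshold without gland M11035 (1.09) or tumor T11640 (1.04). *Atf3*, the mouse gene, had 4.47 to 22.6 CPM in the glands and 13.4 to 19.3 CPM in the tumors and was not a DEG (log2 FC 0.80, adjusted p = 0.224, limma), and transcripts of the transgene were not measured separately.

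The tumors ranked the cornifying enzymes in different orders. *Tgm1* was lowest in T11035 and highest in T9232, an order shared by 32 of the 53 cornified envelope genes (60.4%) and 0 of the 27 hair genes, beside 23.4% of all genes without ties and 30.0% of upregulated DEGs. The order was not particular to that list. It was also that of 11 of 14 genes on the protease and cystatin list (78.6%), 9 of 11 macrophage markers (81.8%) and 7 of 11 fibroblast markers (63.6%). *Tgm3* and *Tgm5* were lowest in T9232 and highest in T11640, an order shared by 11 of the 27 hair genes (40.7%), *Krt25*, *Krt26*, *Krt27* and *Krt73* among them, and by 4 of the 53 envelope genes (7.55%), including *Tchh* and *Krt1*, beside 13.8% of all genes and 13.2% of upregulated DEGs. That order was not particular to the hair list either. It was also that of 5 of 13 adipocyte markers (38.5%), 3 of 11 fibroblast markers (27.3%) and 3 of 15 squamous markers (20%). It was that of 0 of 13 luminal epithelial markers and 0 of 11 macrophage markers. The lowest place lies within counting error for *Tgm5*, with 54 fragments in each of T11035 and T9232. The same holds for *Krt26*, with 8.19 and 6.44 CPM there, and for *Krt27*, with 42.05 and 40.01 CPM. Another 17 envelope genes (32.1%) and 13 hair genes (48.1%) were lowest in T11035 and highest in T11640. No member had that order by CPM, though *Tgm5* cannot be told from it by fragments. These counts describe 3 tumors, were made after the values had been seen and have no test.

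**Figure D5:**
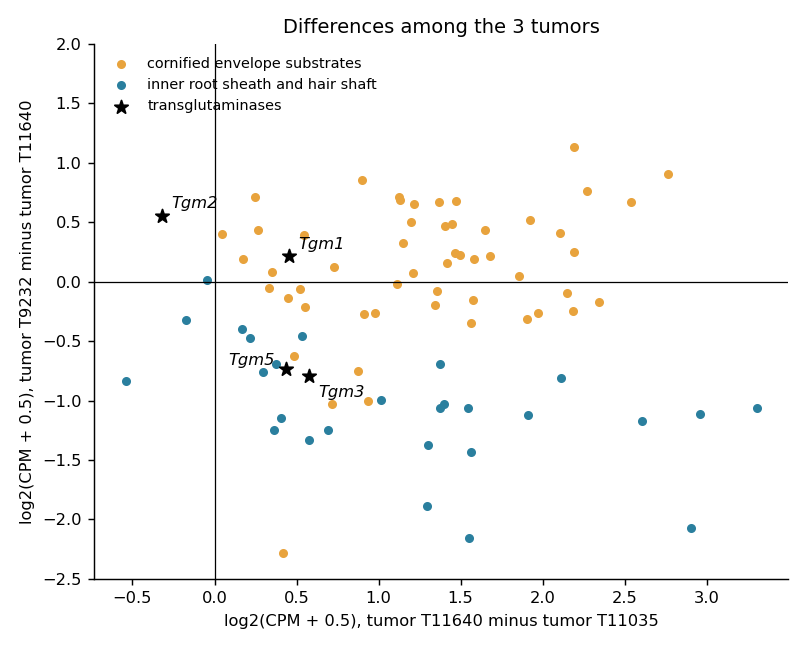
Differences in log2(CPM + 0.5) between tumors T11640 and T11035 (horizontal) and between T9232 and T11640 (vertical) for the 4 transglutaminases (stars), 53 cornified envelope genes and 27 hair genes. *Tgm1* sits in the upper right with 32 of the envelope genes. *Tgm3* and *Tgm5* sit in the lower right, where most hair genes and the remaining envelope genes lie.

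Genes with the pattern most like each member were found by the root mean square (RMS) difference of centered log2(CPM + 0.5) over the 6 libraries, among 14711 genes. This measure follows the size of the tumor and gland difference as well as the order of the samples, and is a description. For *Tgm3* the nearest were *4732456N10Rik* (0.161), *Crnn*, encoding the envelope protein cornulin (0.183), *Tchhl1* (0.246), *Dsg1b*, a desmosomal cadherin (0.275), and *Krt25* (0.276). For *Tgm5* they were *Tprg* (0.159), the root sheath keratin gene *Krt26* (0.163), *Ephx3*, an epoxide hydrolase (0.242), *Fgfr3* (0.249) and *Olfml2b* (0.252).

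For *Tgm1* the nearest were *Eda2r*, a receptor for ectodysplasin A2 (0.0900), *Slc2a1*, the glucose transporter GLUT1 (0.130), *Ass1* (0.137), *Slco4a1* (0.141) and *E2f8* (0.149), none of which is on the envelope list. For *Tgm2* they included *2210012G02Rik* (0.0570), *Smarcc2* (0.0643), *D330012F22Rik* (0.0719) and *Tmem134* (0.0788).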

How the data were processed

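Per the labels, libraries were made from total RNA with the Ovation RNA-Seq System V2. The submitters' processing notes name CASAVA 1.8.2, TopHat2 2.0.3, HTSeq 0.5.3p9 and edgeR 3.6.1. The authors mapped read pairs to mm9, counted fragments per RefSeq gene, removed genes with fewer than 10 fragments in all and deposited an expression signal, CPM on edgeR's effective library size. All values (100%) were whole multiples of 1 step per library (tolerance 0.01), so fragments were recovered. Of the per-sample columns, 0 were left out.

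Here limma 3.58.1 (R 4.3.3) tested log2(CPM + 0.5) with a trend over 15280 genes, two-sided, with Benjamini-Hochberg adjustment. The test had been planned for CPM summing to 1 total, and it was kept for this signal although column sums differ. Alternatives were pseudocounts, a filter, scalings, edgeR 4.0.16, DESeq2 1.42.0, the mouse as a block and leaving out each library. On simulated data with 200 changed genes among 15280, limma recovered 170 with 6 false calls. The changed genes had a mean of at least 1 CPM and changes past the FC threshold, and were far fewer than the 4309 DEGs here. The simulation thus does not cover smaller changes, such as that of *Tgm2*, or genes with glands at the floor. The floors and the intervals of the pooled fragment ratios cover counting error only, while the limma intervals cover variation between libraries. PCR copies are not independent molecules, so counting error may be larger than given.

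Tumor and gland with the same mouse number are paired, being from 1 animal. Over 14712 genes, paired deviations correlated with r = 0.107, 0.151 and 0.0168 for T11035, T11640 and T9232 with their glands. Exon lengths and positions are from GENCODE vM1 (mm9), which held 97.5% of the genes, and 3 of 4 members matched a RefSeq promoter entry (*Tgm2* did not). Members, lists and naming rules were chosen with earlier results of these data known. Named genes are all family members in the table, the 2 largest rises and the 2 largest falls called in each list with a mean of at least 1 CPM, genes chosen for their role, the 5 nearest patterns of each member (1 is not reported here) and chromosomal neighbours. *Krt27*, *Krt1*, *Gata3*, *S100a10* and *Atf3* were added after their values were seen. For 3 listed genes the older symbol in the table was used.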

Additional observations from a re-analysis of the deposited data

How the results depend on the processing

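The 4 members kept their direction and their side of the thresholds in all 64 alternative fits. The log2 FC ran from 2.90 to 3.25 for *Tgm1*, from -0.94 to -0.66 for *Tgm2*, from 6.56 to 8.79 for *Tgm3* and from 3.35 to 6.60 for *Tgm5*. The adjusted p of *Tgm2* ran from 0.00248 to 0.0486 (limma, edgeR or DESeq2), the highest without tumor T11640. With the mouse as a block, *Tgm1* had a log2 FC of 3.06 (adjusted p = 1.4e-04, limma) and *Tgm2* -0.81 (adjusted p = 0.0125, limma), and the count of DEGs was 4298 against 4309 without the pairing. The block changed the DEG call of *F13a1* and of no other named gene, while *Ctsl*, *Ctsd*, *Sdc4* and *Lbp* passed the FDR but not the FC threshold with it (adjusted p = 0.00842, 0.0473, 0.0121 and 0.0385, limma) and *D330012F22Rik* no longer passed the FDR (adjusted p = 0.0555, limma). The count of DEGs ran from 3774 to 4462. Neither *Spp1*, at -1.15 to 0.34 with a library left out, nor *Rabggta*, at -0.09 to 0.33, kept its direction, and neither was called. The count of upregulated genes on the protease and cystatin list was 8 without tumor T11035 in place of 5. Taking the longest transcript in place of all exons gave *Tgm2* 90.1% of the gland sum and *Tgm3* 47.6% of the tumor sum. The 3 glands hold 5 fragments of *Tgm3* and 2 of *Tgm5*, so depth limits how large those changes can be said to be.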
